A study of Mus musculus with 62 samples.

Results

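Nppa, Myl4, Sln and Bmp10 are genes that the adult mouse heart expresses mainly in its atria, and they were followed here in every heart library of a study of RPL3L, a muscle-specific paralog of the ribosomal protein RPL3. The members were chosen by symbol, as 4 of the 10476 genes with a line in the count table. Each gene was represented by the transcript with the highest mean count over the heart libraries, after 1 of each pair of identical lines had been kept.

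The study compared flash-frozen hearts of wild-type (WT) and Rpl3l KO mice by RNA-seq, which counts fragments of transcripts, by Ribo-seq, which counts the footprints of single ribosomes (monosomes), and by Disome-seq, which counts the longer footprints of a pair of abutting ribosomes. Each genotype had 4 numbered replicates in each assay. The mice were C57BL/6J males of 10 weeks of age, and the Rpl3l KO mice carried a germline CRISPR-Cas9 deletion of exon 2 of Rpl3l, made in zygotes and therefore not limited to the heart. The labels give genotype and tissue, and they do not say which chambers or how much attached tissue each heart sample held, or whether libraries of the same number in different assays came from the same heart.

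Atrial myocytes differ from ventricular myocytes in that they are secretory as well as contractile cells. Nppa encodes the precursor of atrial natriuretic peptide, a hormone that lowers blood volume and pressure. Myl4 encodes the atrial essential light chain of myosin, which stabilises the lever arm of the motor. Sln encodes sarcolipin, a short membrane peptide that inhibits the SERCA calcium pump of the sarcoplasmic reticulum. Bmp10 encodes a secreted ligand of the transforming growth factor-beta family, which in the adult mouse heart is made mainly in the right atrium and which signals to endothelial cells through the receptor ALK1. Since the libraries were of bulk tissue, fewer atrial cells and less of a transcript per atrial cell cannot be told apart in any value below.

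On the GRCm38 genome (GENCODE M21), the Nppa transcript ENSMUST00000103230.4 lies at chr4:148000722-148002079, the Myl4 transcript ENSMUST00000106956.9 at chr11:104577281-104587215, the Sln transcript ENSMUST00000048485.6 at chr9:53850164-53854560 and the Bmp10 transcript ENSMUST00000032125.6 at chr6:87428994-87437677, all on the plus strand. Their lengths are 865, 900, 1318 and 4490 bases, of which 459, 582, 96 and 1266 bases are coding. Myl4 had 3 other transcripts in the table. Those named ENSMUST00000106957.7 and ENSMUST00000018800.8 have a coding sequence of the same length and had nearly the same mean count (5569 and 5562, against 5578 for the transcript used), so that how reads divide among the 3 is uncertain. The remaining transcript, ENSMUST00000130588.7, is annotated as a target of nonsense-mediated decay and had a mean count of 1679.

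The study examined ribosomes at Pro and Ala codons, and the members differ widely in how many of these codons they hold. It names Myl4 as an example of the genes with altered elongation at such codons in the Rpl3l KO heart. For those genes as a set it reports lower protein levels. The counts per transcript used here do not show ribosomes at single codons. The beginning of each coding sequence, its first 50 codons or all of it where it is shorter, is shown from the GENCODE M21 transcripts with the Pro (CCN) and Ala (GCN) codons in capitals.
Nppa: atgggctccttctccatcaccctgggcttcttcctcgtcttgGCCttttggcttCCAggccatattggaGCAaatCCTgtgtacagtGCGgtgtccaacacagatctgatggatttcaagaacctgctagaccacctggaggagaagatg
Myl4: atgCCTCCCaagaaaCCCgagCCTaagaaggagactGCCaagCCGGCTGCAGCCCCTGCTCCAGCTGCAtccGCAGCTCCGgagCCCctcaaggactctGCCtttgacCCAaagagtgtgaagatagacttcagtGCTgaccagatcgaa
Sln: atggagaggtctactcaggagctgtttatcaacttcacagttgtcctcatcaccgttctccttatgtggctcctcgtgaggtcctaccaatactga
Bmp10: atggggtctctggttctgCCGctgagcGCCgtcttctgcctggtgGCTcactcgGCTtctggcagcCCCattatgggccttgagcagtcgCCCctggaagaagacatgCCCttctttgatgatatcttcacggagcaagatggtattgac
Myl4 held 21 Pro and Ala codons among these first 50, more than 99.2% of the 10434 coding transcripts of that length or longer, whose median was 7. Nppa held 5 and Bmp10 7. Over whole coding sequences the share of Pro and Ala codons was 17.6% for Myl4 (34 of 193 codons), 16.4% for Nppa (25 of 152) and 10.2% for Bmp10 (43 of 421), beside a median of 12.2% over 10447 coding transcripts taken 1 per gene. Sln, with 31 codons, held none. Sln was 1 of 3 such transcripts, the others being those of the keratin-associated gene Krtap6-1 and of Gm10229, which were named after these values were seen.

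The RefSeq promoter table (build GRCm38.p6), which gives the 250 bases before and the 50 bases after an annotated start, held entries for Nppa, Bmp10 and Myl4. The Myl4 window (chr11:104550413-104550712) belongs to an upstream start, 26618 bases before that of the transcript used here. The windows of Nppa and Bmp10, the most and the least abundant members per length, are shown. Capitals mark the letters of 5 motifs searched on both strands, and no matches overlapped. The TATA box was searched as TATAAA. The motif of GATA factors was searched as AGATAA. The motif of T-box factors was searched as GGTGTG. The motif of NKX2-5 was searched as CAAGTG. The motif of TEAD factors was searched as CATTCC.
Nppa promoter, chr4:148000472-148000771, plus strand: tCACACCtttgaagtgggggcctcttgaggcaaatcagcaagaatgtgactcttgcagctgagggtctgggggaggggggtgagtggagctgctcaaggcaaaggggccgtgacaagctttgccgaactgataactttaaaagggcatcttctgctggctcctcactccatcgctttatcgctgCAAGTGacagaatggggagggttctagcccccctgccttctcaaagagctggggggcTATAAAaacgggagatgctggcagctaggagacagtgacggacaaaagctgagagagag
Bmp10 promoter, chr6:87428744-87429043, plus strand: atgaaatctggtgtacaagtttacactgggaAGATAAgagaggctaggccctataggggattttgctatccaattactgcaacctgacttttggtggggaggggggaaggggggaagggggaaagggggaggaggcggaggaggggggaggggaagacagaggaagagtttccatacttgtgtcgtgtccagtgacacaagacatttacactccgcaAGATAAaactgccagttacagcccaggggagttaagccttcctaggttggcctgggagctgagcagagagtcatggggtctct
The Nppa window held 3 different motifs, namely the TATA box, the NKX2-5 motif and, on the minus strand, the T-box motif, and 2.56% of the 32851 promoters held 3 or more of the 5. The Bmp10 window held the GATA motif at 2 places, and the Myl4 window held none of the 5 motifs. Only the exact letters given were searched, so other forms of a motif were not counted in any window. Alone, the motifs were present in 13.6% (TATA box), 11.2% (GATA), 19.0% (T-box), 13.6% (NKX2-5) and 14.7% (TEAD) of all promoters in the table.

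The libraries differed in depth and, within a genotype, in markers of other tissues. Total counts ranged from 3594696 to 22425296 in RNA-seq, from 1606700 to 3192090 in Ribo-seq and from 39016 to 175747 in Disome-seq with the runs of each replicate summed, so that Disome-seq was the least precise assay. Depth differed by genotype in RNA-seq, at 10930435 to 22425296 counts in Rpl3l KO (median 15397962) and 3594696 to 14041366 in WT (median 4789635.5). In Ribo-seq the medians stood the other way, at 1802789.5 in Rpl3l KO and 2400444.5 in WT. Rpl3l itself was lower in every knockout library of RNA-seq and Ribo-seq (transcript ENSMUST00000170239.8, at 24.4 to 37.0 CPM in Rpl3l KO RNA-seq against 401 to 516 in WT, CPM being the count scaled to a common library total), whereas its ranges overlapped in Disome-seq (0 to 359 against 187 to 567 CPM). The ventricular list, led by Myl2 and Myl3, was present at 23065 to 28840 summed CPM in RNA-seq. The airway and lung list (12 of 20 genes with a line, led by Bpifa1 and Cyp2f2) varied most, from 12.6 to 1922 summed CPM in RNA-seq and from 13.7 to 3783 in Ribo-seq.

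Nppa was the most abundant member, and the genotypes overlapped in each assay. In RNA-seq, Nppa stood at 4534, 4490, 3958 and 3910 CPM in WT 1 to 4 and at 3594, 2704, 4096 and 4235 CPM in Rpl3l KO 1 to 4. Rpl3l KO 1 and 2 lay below every WT library and the other two lay within the WT range, with means of 4223 ± 335 (SD, n = 4) and 3657 ± 693 CPM. In Ribo-seq the order turned, with 2533, 2721, 2763 and 2700 CPM in WT and 2812, 2800, 2298 and 3231 CPM in Rpl3l KO. Here 3 of the 4 knockout libraries lay above every WT library, and Rpl3l KO 3 lay below all of them.

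Myl4 was the second most abundant member in RNA-seq, and its genotypes overlapped as well. Its RNA-seq level was 1361, 1452, 1064 and 1337 CPM in WT and 1346, 925, 1408 and 1343 CPM in Rpl3l KO. Only Rpl3l KO 2 lay below the WT range, and the remaining knockout libraries lay within 1343 to 1408 CPM. In Ribo-seq, Myl4 stood at 1072, 1058, 969 and 1025 CPM in WT and at 942, 1003, 767 and 1079 CPM in Rpl3l KO, with Rpl3l KO 3 the lowest of the 8 libraries.

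Sln was the member with the most knockout libraries below the WT range in both RNA-seq and Ribo-seq. Its RNA-seq level was 108, 136, 106 and 120 CPM in WT and 95.1, 75.6, 121 and 99.5 CPM in Rpl3l KO, so that 3 knockout libraries lay below every WT library and Rpl3l KO 3 lay within the WT range. Its Ribo-seq level was 205, 190, 189 and 193 CPM in WT and 149, 160, 126 and 195 CPM in Rpl3l KO. Again 3 knockout libraries lay below every WT library, and the exception was Rpl3l KO 4. The Ribo-seq means were 194 ± 7.33 and 158 ± 28.7 CPM (SD, n = 4).

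Bmp10 was the least abundant member per length and the one with the largest SD for its mean in RNA-seq and Ribo-seq, and it was all but missing from single knockout libraries. In RNA-seq it stood at 40.1, 19.9, 63.1 and 20.7 CPM in WT (88 to 326 counts) and at 21.97, 0.40, 25.4 and 48.9 CPM in Rpl3l KO. The library Rpl3l KO 2 held 7 counts, with a 95% Poisson interval of 0.162 to 0.832 CPM, although it was one of the deeper libraries, and the next lowest library held 19.9 CPM. In Ribo-seq, Bmp10 stood at 408, 297, 386 and 264 CPM in WT and at 205, 292, 0 and 301 CPM in Rpl3l KO.

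The Ribo-seq library with no Bmp10 footprint was Rpl3l KO 3, in which a count of 0 allows a level of up to 1.87 CPM (3 counts of the total), and the other 7 libraries held 394 to 1303 counts. Rpl3l KO 3 was also at 0 in Disome-seq, where the limit is 62.3 CPM and the other 7 libraries held 5 to 46 counts. The library with the least Bmp10 was thus numbered 2 among the knockouts in RNA-seq and 3 in both ribosome assays, and whether these came from the same heart is not given. Such intervals and limits cover counting error only.

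**Figure D1:**
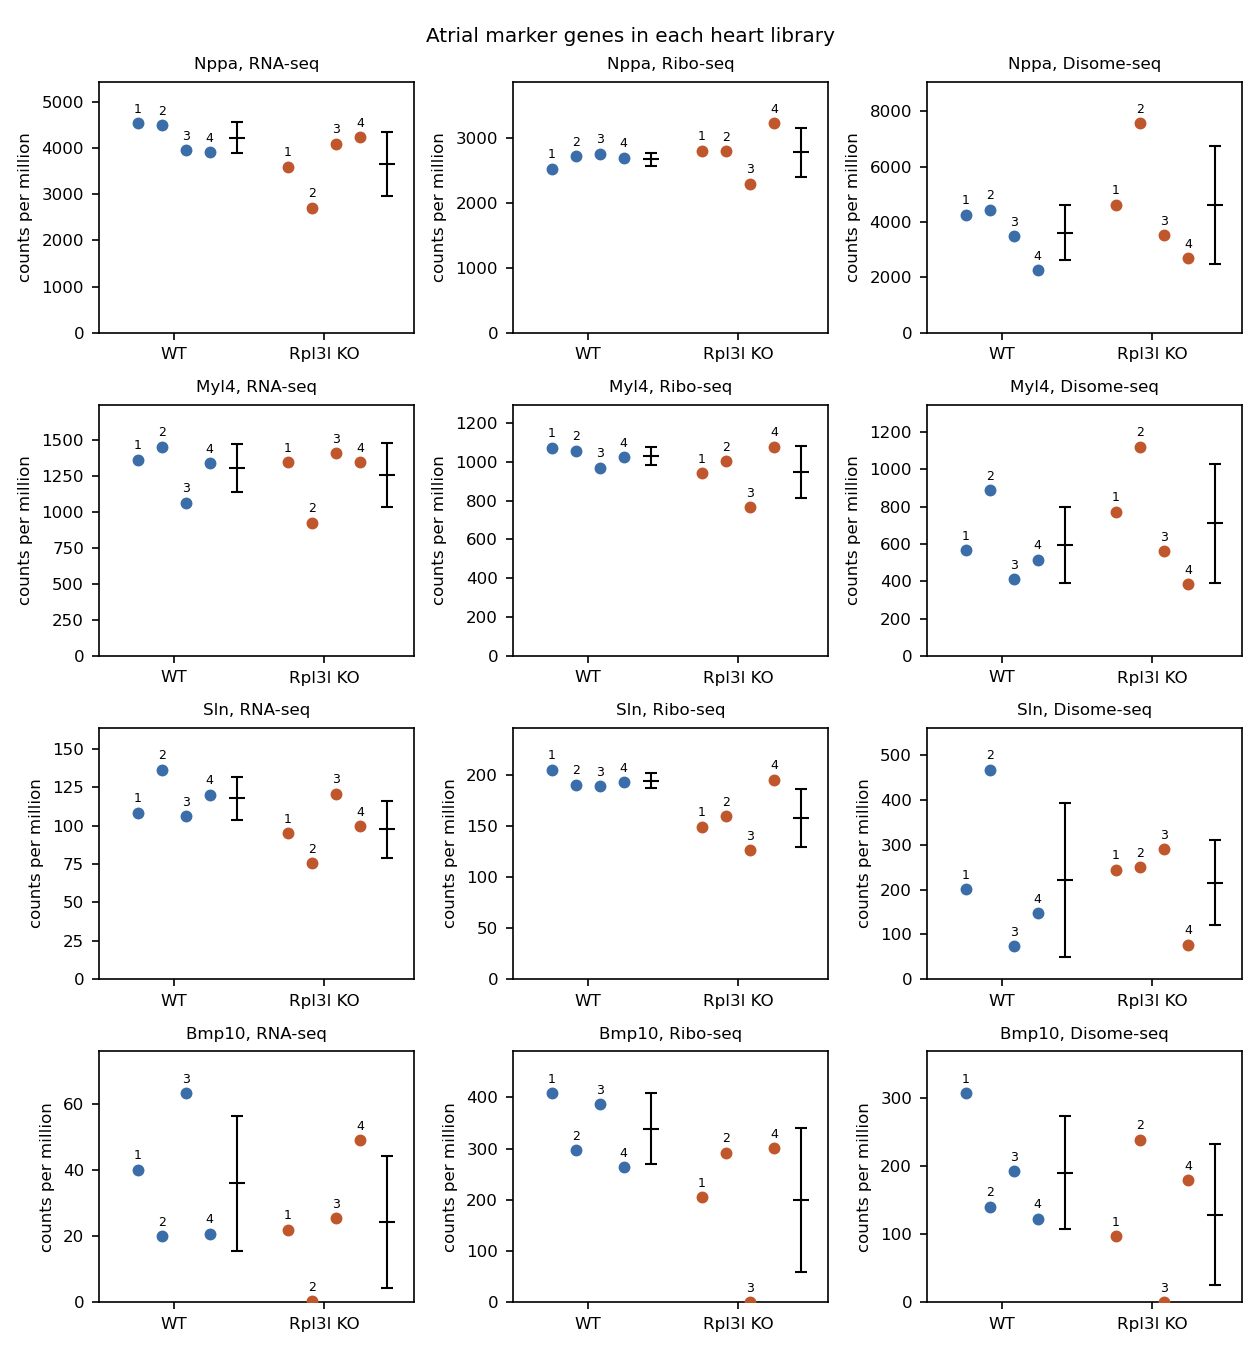
CPM (vertical axis, from 0) of Nppa, Myl4, Sln and Bmp10 in each heart library by RNA-seq, Ribo-seq and Disome-seq; points are libraries marked with their replicate number, and bars are the mean with 1 SD (n = 4). All 4 genes are lowest in Rpl3l KO 2 by RNA-seq and in Rpl3l KO 3 by Ribo-seq, where Bmp10 falls to 0.40 and 0 CPM.

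Across many transcripts, the loss of RPL3L was tested with the quasi-likelihood F-test of edgeR and Benjamini-Hochberg adjustment over the transcripts tested, and a transcript was called at an adjusted p under 0.05. No member was called in any of the 5 comparisons. In RNA-seq, 2 of 15394 transcripts tested were called, or 0.0130%, both of them of Rpl3l, and 0 of the 4 members. In Ribo-seq, 97 of 12695 were called, or 0.764%, and again 0 of the 4 members. The genotypes did not overlap in CPM for 1.49% of the transcripts tested in RNA-seq, 10.5% in Ribo-seq and 3.30% in Disome-seq, and for 0 of the 12 combinations of member and assay.

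All 4 members had RNA-seq estimates below 0, with a median log2 fold change of -0.24 beside a median of 0.0037 over all transcripts tested. The log2 fold change of Rpl3l KO against WT was -0.27 ± 0.14 (standard error) for Sln, with an adjusted p of 0.999 by edgeR. It was -0.21 ± 0.14 for Nppa, -0.06 ± 0.14 for Myl4 and -0.57 ± 0.63 for Bmp10, with the same adjusted p to 3 digits. Without Rpl3l KO 2, the estimate for Bmp10 was -0.16 ± 0.33, that for Nppa -0.13 ± 0.12 and that for Sln -0.21 ± 0.14, whereas that for Myl4 changed sign to 0.020 ± 0.14. For Bmp10 the estimate was also -0.21 without WT 3 and -1.17 without Rpl3l KO 4.

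In Ribo-seq, Sln came closest to the threshold, with a log2 fold change of -0.26 ± 0.11, an unadjusted p of 0.036 and an adjusted p of 0.265 by edgeR, and lower values in 3 of 4 knockout libraries than in every WT library. An exact permutation test of its log2 CPM, 4 libraries against 4 and two-sided, gave p = 0.114, beside a smallest possible p of 0.0286. The Ribo-seq estimates were 0.10 ± 0.095 for Nppa, -0.08 ± 0.096 for Myl4 and -0.72 ± 0.58 for Bmp10, with adjusted p-values of 0.657, 0.720 and 0.569 by edgeR. The estimate for Nppa was 0.0016 without Rpl3l KO 4, 0.055 without WT 1 and 0.17 without Rpl3l KO 3. The difference in mean log2 CPM of Bmp10 in Ribo-seq was -2.28, a value that depends on the prior count of 2 added to the library at 0. Without Rpl3l KO 3, the estimate for Bmp10 was -0.32 ± 0.16 and that for Myl4 was -0.00018 ± 0.087. The estimate for Sln without that library was -0.18 ± 0.11.

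In Disome-seq, 0 of 1365 transcripts were called, or 0%, with 60 at an unadjusted p under 0.05 and 0 by DESeq2. Nppa stood at 4260, 4441, 3479 and 2256 CPM in WT and at 4626, 7565, 3528 and 2691 CPM in Rpl3l KO, so that 2 knockout libraries lay above every WT library. Its log2 fold change was 0.32 ± 0.28, with an adjusted p of 0.940 by edgeR, and was 0.047 without Rpl3l KO 2 and 0.52 without WT 2. The other members had few disome footprints, 15 to 136 counts for Myl4, 3 to 43 for Sln and 0 to 46 for Bmp10. Their log2 fold changes were 0.28 ± 0.33, 0.072 ± 0.49 and -0.67 ± 0.57. Leaving out 1 library moved Myl4 to between 0.045 (without Rpl3l KO 2) and 0.60 (without WT 2), and Bmp10 to between -1.10 (without Rpl3l KO 2) and -0.24 (without WT 1).

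Translation efficiency, the change in Ribo-seq beyond that in RNA-seq, was tested as the interaction of genotype and assay over 16 libraries, and 0 of 12483 transcripts were called, or 0%, with 805 at an unadjusted p under 0.05 and 22 called by DESeq2. Nppa was the member with the largest ratio to its error, a log2 difference of 0.31 ± 0.17 with an approximate 95% interval of -0.026 to 0.64 and an adjusted p of 0.827 by edgeR. The intervals were -0.38 to 0.34 for Myl4, -0.35 to 0.38 for Sln and -2.19 to 1.88 for Bmp10. Bmp10 was thus the member for which the data bound a difference least. Without both of the knockout libraries lowest in Bmp10, a setting chosen after the values were seen, its estimate was -0.17 ± 0.42.

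Disomes relative to monosomes were tested in the same way over Ribo-seq and Disome-seq, and 0 of 1365 transcripts were called, or 0%, with 127 at an unadjusted p under 0.05 and 25 called by DESeq2. The log2 difference was 0.22 ± 0.34 for Nppa, 0.41 ± 0.34 for Myl4, 0.43 ± 0.46 for Sln and -0.037 ± 1.24 for Bmp10, with adjusted p-values by edgeR between 0.691 and 0.995. This fit did not use the replicate numbers, which paired the samples of these assays. Its errors therefore include differences between replicates that both assays share. With a replicate block, no member was called either. Leaving out 1 library moved the estimate for Sln to between 0.16 (without WT 3) and 0.98 (without WT 2).

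**Figure D2:**
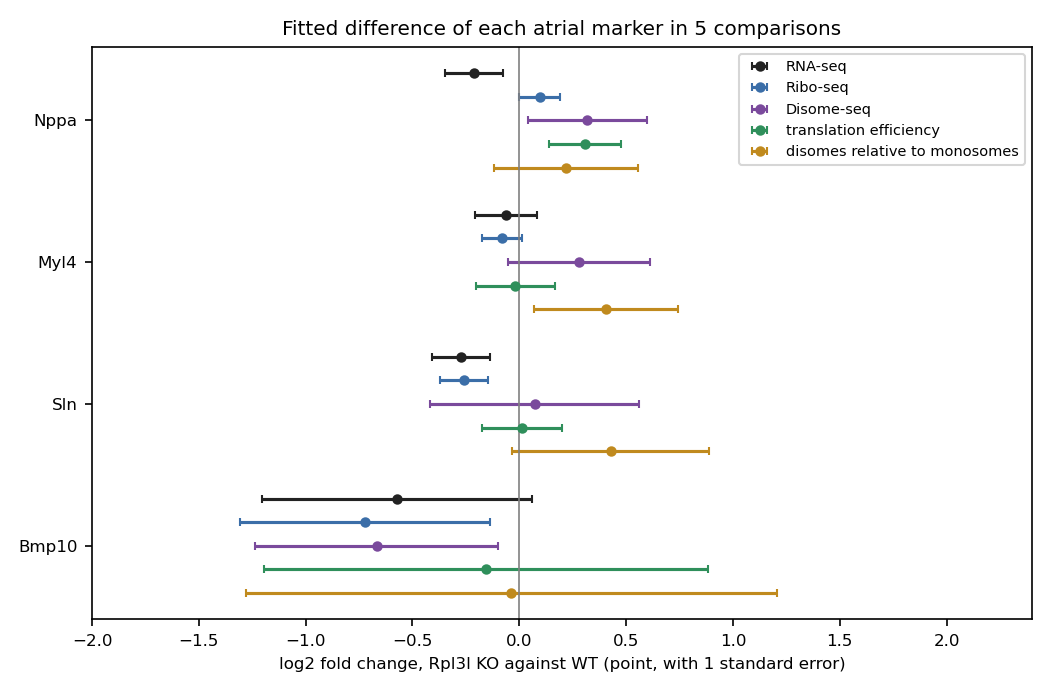
Log2 fold change of Rpl3l KO against WT (horizontal axis) for the 4 genes in 5 comparisons; points are edgeR estimates and bars 1 standard error. No estimate passed an adjusted p of 0.05, and the bars of Bmp10 are the widest, reaching 1.24 for disomes relative to monosomes.

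Levels were compared between genes per kilobase, of transcript for RNA-seq and of coding sequence for the ribosome assays. In WT RNA-seq the order was Nppa (4882 ± 387 CPM per kilobase, SD, n = 4), Myl4 (1448 ± 186), Sln (89.3 ± 10.5) and Bmp10 (8.01 ± 4.54), and each neighbour differed by more than the spread. Nppa ranked 7th and Myl4 24th of 7742 genes with a value, taken 1 transcript per gene. Sln and Bmp10 ranked 366th and 2377th.

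The order differed in WT Ribo-seq, where Sln (2022 ± 76.4 CPM per kilobase) stood above Myl4 (1771 ± 78.7) in 4 of 4 libraries, with Nppa first (5837 ± 220) and Bmp10 last (268 ± 54.8). In Rpl3l KO, Sln stood above Myl4 in 1 of 4 libraries, and this difference in order was not tested. Sln has so short a coding sequence that the footprints at its ends weigh heavily in a value per kilobase.

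Sln and Bmp10 therefore carried far more footprints for their RNA than Nppa and Myl4 did. The WT ratio of Ribo-seq per kilobase of coding sequence to RNA-seq per kilobase of transcript was 22.6 for Sln and 33.4 for Bmp10 (log2 values of 4.50 and 5.06), above 96.8% and 98.4% of 5267 genes whose mean counts reached 10 in each assay. Its log2 value was 0.26 for Nppa and 0.29 for Myl4, above 17.1% and 17.8% of those genes. For Sln the position depended on length, since its ratio of plain CPM (log2 value of 0.72) lay above 55.9% of genes. For Bmp10 it did not, with a log2 ratio of plain CPM of 3.24, above 98.5% of genes.

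By number, the log2 ratio of Bmp10 footprints to RNA was 3.33, 3.87, 2.61 and 3.67 in WT 1 to 4. The WT ratio of disome to monosome CPM had a log2 value of 0.43 for Nppa, 0.19 for Sln, -0.79 for Myl4 and -0.83 for Bmp10. These lay above 62.2%, 50.9%, 11.6% and 10.3% of 621 genes with enough counts in the 3 assays. Myl4 thus had few disomes for its monosomes in WT hearts beside these genes, which had to reach a mean Disome-seq count of 10. Its WT libraries held 21 to 85 disome counts. The study lists Myl4 among genes with disome peaks, which a ratio over the whole gene does not show.

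**Figure D3:**
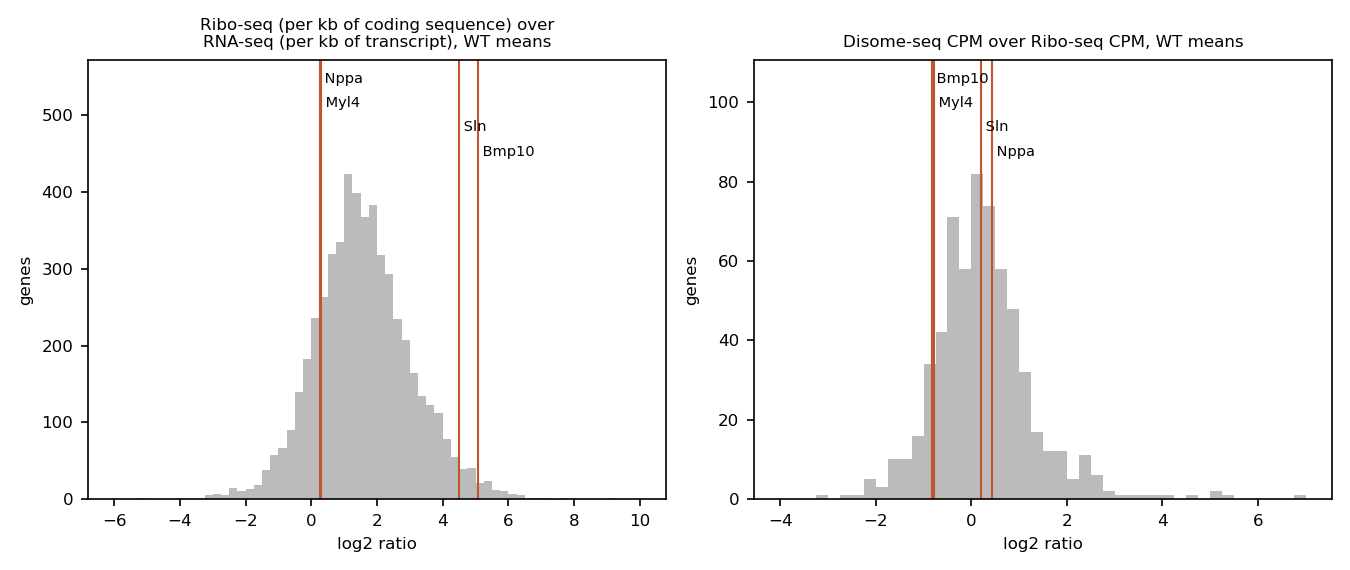
Histograms of WT log2 ratios over genes (vertical axis, number of genes), at the left of Ribo-seq per kilobase of coding sequence to RNA-seq per kilobase of transcript over 5267 genes, and at the right of Disome-seq to Ribo-seq CPM over 621 genes; lines mark the members. Sln and Bmp10 lie in the right tail of the first ratio (4.50 and 5.06), and Myl4 and Bmp10 lie left of the middle of the second (-0.79 and -0.83).

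The 4 members shared their lowest library in RNA-seq and in Ribo-seq. In RNA-seq, Rpl3l KO 2 was the lowest of the 8 libraries for 4 of 4 members, and in Ribo-seq Rpl3l KO 3 was the lowest for 4 of 4. Left out of the knockout mean, RNA-seq Rpl3l KO 2 moved Nppa from 3657 to 3975 CPM and Bmp10 from 24.2 to 32.1 CPM. The other atrial genes were less uniform. Their summed RNA-seq level was also lowest in Rpl3l KO 2 (1848 CPM, against 2022 to 2456 in the other libraries). Their summed Ribo-seq level in Rpl3l KO 3 (2762 CPM), in contrast, lay within the range of the others (2668 to 3172). Clu made up 1772 CPM of the latter sum, beside a WT mean of 1782 ± 97.5 CPM. In that library Gpx3 stood at 263 CPM (WT mean 374 ± 12.6) and Kcnk3 at 126 CPM (WT mean 84.2 ± 12.2).

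Pearson correlations of log2 CPM over the 8 libraries were computed for 18 pairs, 6 in each assay, with exact permutation p-values adjusted over the 18. In Ribo-seq, Myl4 and Sln had r = 0.90 (p = 0.00506, adjusted p = 0.0478, exact permutation, and Spearman rho = 0.93, p = 0.00223, adjusted p = 0.0402). Without the 2 libraries farthest from the median, r was 0.53. Sln and Bmp10 had r = 0.81 (p = 0.00531, adjusted p = 0.0478, exact permutation, and rho = 0.76, p = 0.0368, adjusted p = 0.165), which fell to 0.38 without the 2 farthest libraries. No other pair passed an adjusted p of 0.05 in any assay. The Ribo-seq pairs of Nppa with Myl4, Sln and Bmp10 had r = 0.67, 0.48 and 0.68, which turned to -0.78, -0.79 and -0.63 without the 2 farthest libraries. In RNA-seq, rho was -0.024 both for Myl4 with Bmp10 and for Sln with Bmp10, and in Disome-seq r was -0.35 for Sln with Bmp10.

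In RNA-seq the highest r was that of Nppa and Bmp10, 0.88 (p = 0.0441, adjusted p = 0.0882, exact permutation, and rho = 0.40, p = 0.327, adjusted p = 0.588). Without the 2 farthest libraries it was 0.066, so that it rested on them. Groups of 4 libraries were too small for a correlation within a genotype. Between RNA-seq and Ribo-seq libraries of the same number, each member had r between -0.16 and 0.18 and exact permutation p-values between 0.629 and 0.863 (rho between -0.38 and 0.48, p between 0.243 and 0.9349). These values depend on the numbering of Rpl3l KO 2 and 3. Over 6541 transcripts, deviations from the group mean correlated at 0.30 to 0.42 between the assays for equal numbers in WT and at 0.67 and 0.52 for Rpl3l KO 1 and 4, but at -0.64 and -0.69 for Rpl3l KO 2 and 3.

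Some markers of other tissues were also low in RNA-seq Rpl3l KO 2 and Ribo-seq Rpl3l KO 3, and others were not. The airway and lung list summed to 14.9 CPM in RNA-seq Rpl3l KO 2 and to 13.7 CPM in Ribo-seq Rpl3l KO 3, with Bpifa1, the airway secretory protein that leads it, at 0 in both, but it was as low in RNA-seq WT 1 (15.0 CPM) and Rpl3l KO 4 (12.6 CPM), in which Bmp10 was at 40.1 and 48.9 CPM. The sum of the fat list (10 of 15 genes with a line) was lowest in RNA-seq Rpl3l KO 2 (1559 CPM, against 1921 to 3491 elsewhere). It was not lowest in Ribo-seq Rpl3l KO 3 (5822 CPM, against 5750 in WT 1). Lpl alone made up 1501 and 5714 CPM of these 2 knockout sums, so that they say little about the other fat genes. Cfd, a protease that adipocytes secrete, stood at 7.79 CPM in RNA-seq Rpl3l KO 2 and at 24.9 CPM in Ribo-seq Rpl3l KO 3, each the lowest of the 8 libraries. The part of attached tissue in the members' values was not tested.

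The endothelial and endocardial list (6 of 12 genes with a line) was lowest in the same libraries, at 168 CPM in RNA-seq Rpl3l KO 2 against 226 to 293 elsewhere, and at 571 CPM in Ribo-seq Rpl3l KO 3 against 671 to 846. The conduction system list (7 of 15) had its lowest sums there too, 53.7 CPM against 64.1 to 83.9 in RNA-seq and 209 CPM against 225 to 263 in Ribo-seq, as did the epicardial and mesothelial list (7 of 14), 9.35 CPM in RNA-seq and 31.7 CPM in Ribo-seq. In contrast, the sum of the ventricular list (10 of 18) was highest in RNA-seq Rpl3l KO 2, at 28840 CPM against 28550 in WT 2. Most of it was Myl2 (16104 CPM) and Myl3 (10778 CPM). In Ribo-seq Rpl3l KO 3 the list stood at 14117 CPM, below Rpl3l KO 4 (14806 CPM).

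**Figure D4:**
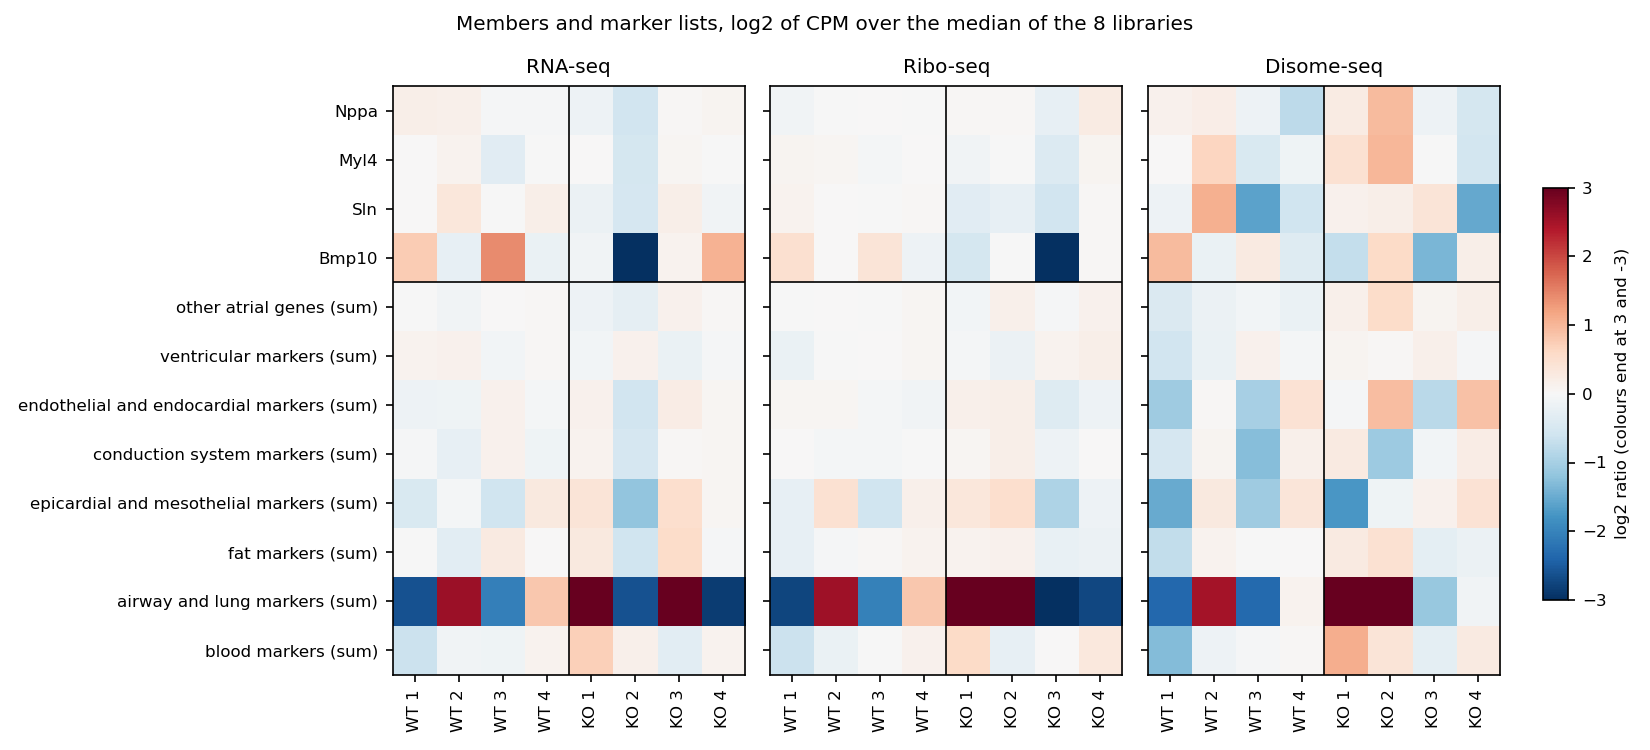
Log2 of CPM over the median of the 8 libraries (colour, ending at 3 and -3) for the members and for summed marker lists, by library (horizontal axis) and assay; values under 3 counts are drawn at 3 counts. The columns Rpl3l KO 2 in RNA-seq and Rpl3l KO 3 in Ribo-seq are blue for all 4 members, and the airway and lung list spans the widest range, 12.6 to 1922 CPM in RNA-seq.

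Among the other atrial genes and the genes that work with the members, 1 was called, and it was one of the other atrial genes. Of the other atrial genes, 12 of 30 had a line and were tested in RNA-seq. In RNA-seq 0 rose and 0 fell, with a median log2 fold change of -0.12. In Ribo-seq 10 were tested and 1 rose, Kcnk3, which encodes the potassium channel TASK-1 of atrial myocytes, with a log2 fold change of 0.53 ± 0.11 (adjusted p = 0.04998 by edgeR). The call was lost under 12 of 14 alternatives, each replicate left out in turn among them, with adjusted p-values up to 0.136, although each estimate was above 0. Kcnk3 footprints averaged 84.2 ± 12.2 CPM in WT and 118 ± 8.83 CPM in Rpl3l KO (SD, n = 4). The most abundant genes of the list, Clu, Gpx3 and Stard10, averaged 1142, 412 and 239 CPM in WT RNA-seq and 1160, 383 and 217 CPM in Rpl3l KO RNA-seq.

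In the natriuretic peptide pathway, 6 of 14 genes had a line, and none passed the test in RNA-seq or in Ribo-seq. Nppb, the gene of brain natriuretic peptide and the closest relative of Nppa, averaged 217 ± 84.6 CPM in WT and 217 ± 26.1 CPM in Rpl3l KO RNA-seq, and 296 ± 77.0 and 293 ± 25.4 CPM in Ribo-seq. Nppb was not low in the libraries that were low in the members, at 246 CPM in RNA-seq Rpl3l KO 2 and 309 CPM in Ribo-seq Rpl3l KO 3. The receptor gene Npr2 and the phosphodiesterase gene Pde2a averaged 62.2 and 48.7 CPM in WT RNA-seq.

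Among the regulators of SERCA and the calcium store, which share the target of sarcolipin, 6 of 16 genes had a line, and 0 rose and 0 fell in RNA-seq and in Ribo-seq. Their median log2 fold change in Ribo-seq was -0.087, beside 0.011 over all transcripts. Pln, which encodes phospholamban, the ventricular counterpart of sarcolipin, averaged 1457 ± 146 CPM in WT and 1386 ± 167 CPM in Rpl3l KO RNA-seq, whereas Hrc and Casq2, genes of calcium-binding proteins of the store, averaged 1994 and 507 CPM in WT.

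In BMP10 signalling, 14 of 22 genes had a line, and 0 of the 10 tested in RNA-seq and 0 of the 9 tested in Ribo-seq passed. Eng, the gene of the co-receptor endoglin, averaged 140 ± 19.1 CPM in WT and 148 ± 29.4 CPM in Rpl3l KO RNA-seq, and Id3, a target of this signalling, 32.2 ± 7.88 and 34.9 ± 6.66 CPM. In the RNA-seq library with the least Bmp10, Eng stood at 113 CPM and Id3 at 32.7 CPM. Tcap, a Z-disc gene whose protein has been described to bind BMP10, averaged 1204 ± 385 CPM in WT and 1260 ± 309 CPM in Rpl3l KO RNA-seq.

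Of the myosin chains, 12 of 22 had a line, and 0 of the 7 tested in RNA-seq and 0 of the 12 tested in Ribo-seq passed. All 12 Ribo-seq estimates were above 0, with a median of 0.22, beside 0.011 over all transcripts tested. The share above 0 over all transcripts was not computed. Myl4, a myosin chain kept off this list as a member, stood at -0.081 in Ribo-seq. In RNA-seq, 4 of the 7 estimates were above 0, with a median of 0.018. Myh1, Myh2, Myh3, Myh8 and Myl10 were among the 12 but did not reach the RNA-seq filter. Whether chains of like sequence shared footprints, as multiple mapping allows, was not tested. Myl2 and Myl3, the ventricular light chains beside which Myl4 stands, averaged 15657 and 9515.5 CPM in WT RNA-seq, and Myl9, a smooth muscle light chain, 74.2 CPM. Of the cardiac transcription factors, 8 of 20 had a line and none passed in RNA-seq or in Ribo-seq, with a median log2 fold change in Ribo-seq of 0.25 and with Mef2d, Hand2 and Irx4 the most abundant.

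None of the remaining marker lists had a gene past the threshold in RNA-seq or in Ribo-seq. The median RNA-seq log2 fold change was -0.039 for the ventricular list, 0.066 for the conduction system list, 0.28 for the pulmonary vein and smooth muscle list, 0.20 for the epicardial and mesothelial list, 0.092 for the endothelial and endocardial list, 0.39 for the blood list and 0.060 for the immediate-early genes. It was 0.55 for the fat list and 2.16 for the airway and lung list, in which 10 of 11 tested genes had estimates above 0.

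The genes whose RNA-seq profile was most like that of the members were sought among 4915 genes whose mean RNA-seq count reached 50, by Pearson r over 8 libraries with the mean of the 4 members after each was centred and scaled. The 10 most alike had r between 0.92 and 0.97. Each of them was lowest in Rpl3l KO 2, which follows from the ranking and is no separate result. The members' own score was -2.12 in that library and -0.15 to 0.79 in the others. They were Srebf2, Fbln1, Map3k5, Pgghg, Ahsg, Isyna1, Mybphl, Thbs3, Mtpap and Dpt. Over the 8 Ribo-seq libraries, where the members' own lowest library was Rpl3l KO 3, Mybphl had the highest r of these, 0.71, followed by Fbln1 (0.61), Thbs3 (0.49) and Dpt (0.48), and 8 of the 10 were above 0, beside a median r of 0.016 over the genes compared.

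Mybphl encodes a myosin-binding protein that the heart makes mainly in its atria and conduction system, and it was not on the lists. Its RNA-seq level averaged 149 CPM in WT and 139 CPM in Rpl3l KO, and ranged from 94.4 to 162 CPM over the 8 libraries. Fbln1 and Dpt, which encode extracellular matrix proteins of fibroblasts, ranged from 94.0 to 142 CPM and from 40.6 to 63.4 CPM.

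In the m6A-seq table, which lists 3181 peaks of N6-methyladenosine that the authors called on coding regions shared by 3 replicates of each genotype, Bmp10 was the one member with peaks. Both lay in the coding part of exon 2, the last of 2 exons. The peak at chr6:87433632-87433665 stood at 38.0, 34.4 and 43.4 TPM in WT and 29.1, 39.7 and 46.0 TPM in Rpl3l KO, from 9 to 25 reads. The peak at chr6:87434405-87434425 stood at 87.7, 202 and 127 TPM in WT and 144, 171 and 196 TPM in Rpl3l KO, from 16 to 49 reads. The genotypes overlapped at each peak, and every m6A-seq library held reads at both. No test was run on these values, since 3 replicates against 3 cannot pass the threshold by an exact test.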

How the data were processed

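RNA-seq, Ribo-seq and Disome-seq of WT and Rpl3l KO hearts (4 replicates each) were analysed, and m6A-seq of 3 replicates each was read for Bmp10. The authors deposited raw counts per transcript, made for Ribo-seq and Disome-seq by trimming with cutadapt, removal of rRNA reads, alignment with STAR with multiple mappings allowed, removal of UMI duplicates and counting with featureCounts (mm10, GRCm38.p6), and how the RNA-seq counts were made is not given in the sources used here. Multiple mapping lets transcripts of a gene, and genes of like sequence, share reads. For m6A-seq, the authors deposited counts and TPM of peaks on coding regions. Of the table's 23877 transcripts, 23662 matched GENCODE M21 by identifier, all of them on the plus strand, so that genes on the other strand were not analysed here. The table had 12 columns that were not used. The 2 Disome-seq columns of a replicate were summed. Columns of the authors' own comparisons were not used.

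Transcripts whose mean count reached 10 were tested with edgeR 4.0.16 (R 4.3.3) after TMM scaling, without a replicate block, and standard errors were derived from the F statistic. DESeq2 1.42.0, other filters and scalings, a replicate block and leaving out each replicate were the alternatives. The script was checked on simulated data. Genes were named as the 4 members, the 3 most abundant genes of each list, any gene of a list that was called, and the 10 genes most like the members. The members and lists were chosen with earlier results of these data known. The labels number the replicates, and the study describes them as separate mice. Every pair of replicates within a group and assay differed beyond sampling noise, so none was counted as a duplicate.

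Replicate numbers were checked by the correlation of deviations from group means. Between WT and Rpl3l KO libraries of the same number it ranged from -0.35 to -0.12 in RNA-seq and from -0.44 to 0.52 in Ribo-seq, so the numbers did not pair the genotypes. Between RNA-seq and Ribo-seq it was 0.30 to 0.67, except for Rpl3l KO 2 and 3 (-0.64 and -0.69), so the numbers did not pair all samples there. Between Ribo-seq and Disome-seq of the same number it was 0.47 to 0.70, so there the numbers paired the samples.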

Additional observations from a re-analysis of the deposited data

Results flagged for a closer look

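Myl4 in the Rpl3l KO RNA-seq group had 1 library apart from the others. Rpl3l KO 2 stood at 925 CPM and the other 3 libraries at 1343 to 1408 CPM, so that the gap was 0.866 of the group's range, above Dixon's 95% critical value for 4 samples. By chance about 1 in 20 groups passes this value, and 24 groups of a member, genotype and assay were looked at.

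Libraries of control C2C12 myoblasts, a mouse skeletal muscle line that the comparisons above do not use, held counts of 2 members above the limit of 3. Myl4 had 82, 68 and 140 counts in the RNA-seq replicates and 20, 21 and 21 counts in the Ribo-seq replicates. Nppa had 5 and 32 counts in Ribo-seq replicates 1 and 3 and 2 counts in replicate 2. It had 0 counts in each of the RNA-seq replicates, so that no Nppa RNA was detected in these cells.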

How the results depend on the processing

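No member passed the threshold under any alternative. Of 302 alternative log2 fold changes of the members, 277 kept their direction and 25 changed it. For Sln, translation efficiency was -0.013 with a minimum total count of 10, -0.031 with library totals and -0.0032 with the replicate block. For Bmp10, disomes relative to monosomes were 0.073 with the minimum total count of 10, 0.015 with library totals, 0.12 with DESeq2, 0.032 with the replicate block and 0.061 with 1 transcript per gene. Leaving out 1 replicate at a time gave -0.19 to 0.020 for Myl4 in RNA-seq and -0.19 to 0.72 for Sln in Disome-seq. For translation efficiency it gave -0.13 to 0.093 for Myl4, -0.12 to 0.18 for Sln and -0.80 to 0.26 for Bmp10. For disomes relative to monosomes it gave -0.043 to 0.46 for Nppa and -0.22 to 0.32 for Bmp10. The cause of the changes in direction was not tested. For translation efficiency, replicates were left out by number, and the replicate block used the same numbers. Deviations in RNA-seq Rpl3l KO 2 correlated at -0.64 with Ribo-seq Rpl3l KO 2 and at 0.72 with Ribo-seq Rpl3l KO 3. Each such fit left out at most 1 of the knockout libraries lowest in Bmp10. The range for Bmp10 therefore does not show the effect of leaving out a single heart. The call of Kcnk3 in Ribo-seq was kept with a minimum mean count of 50 and with DESeq2 and lost otherwise.

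The counts of transcripts called moved as follows. Ribo-seq calls were 63 with a minimum total count of 10, 185 with DESeq2, 7 with 1 transcript per gene and 16 to 60 without any 1 of the 8 libraries, against 97. RNA-seq calls were 11 with DESeq2 and 1 with 1 transcript per gene, against 2. Against 0, Disome-seq calls were 3 with the minimum total count of 10, 2 with the replicate block, 2 with run 2 alone and 0 to 2 without 1 replicate. Translation efficiency calls were 22 with DESeq2, and disomes relative to monosomes gave 7 calls with a minimum mean count of 50 and 25 with DESeq2. Depth limits Disome-seq most, with as few as 39016 counts in a library.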

Other observations

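Of 2882 genes compared, 8 stood at under 0.5 of every other library both in RNA-seq Rpl3l KO 2 and in Ribo-seq Rpl3l KO 3, a rule set after the values of Bmp10 were seen. They were Bmp10, the airway genes Bpifa1 and Cyp2f2, and the fat genes Ucp1, Pck1, Adipoq, Car3 and Cfd. The lowest other library of Bpifa1 stood at 0.18 CPM in RNA-seq and 1.19 CPM in Ribo-seq, so that Bpifa1 met the rule near the limit of 3 counts. That of Cyp2f2 stood at 0.64 and 2.82 CPM, and that of Bmp10 at 19.9 and 205 CPM. Bmp10 was the one member among them. Across the knockout libraries, deviations from the group mean correlated at 0.72 between RNA-seq Rpl3l KO 2 and Ribo-seq Rpl3l KO 3 and at 0.74 between RNA-seq Rpl3l KO 3 and Ribo-seq Rpl3l KO 2, whereas libraries of the same number stood at -0.64 and -0.69. The numbers were used as the labels give them.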
